A study of Mus musculus with 6 samples.

Results

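The genes described here are the 10 genes of the BAFF, CD40 and noncanonical NF-kappaB axis: the ligands Tnfsf13b (BAFF) and Tnfsf13 (APRIL), the receptors Tnfrsf13c (BAFF receptor), Tnfrsf13b (TACI), Tnfrsf17 (BCMA) and Cd40, the adaptors and ubiquitin ligases Traf2, Traf3 and Birc3, and the kinase Map3k14 (NIK). They were taken by symbol through their Ensembl IDs from a raw count table of 56884 genes, and each of the 10 had 1 row. The study compared 3 samples of selected splenic B cells from wild-type (WT) mice, whose columns are named BL6, with 3 unselected spleens from passage 1 (P1) of an adoptive transfer of cells of the Eµ-SOX11CCND1 mouse model of mantle cell lymphoma. In that model the Eµ immunoglobulin enhancer drives the transgenes in B lineage cells. The WT libraries are called WT A, B and C, since no label ties a WT column to 1 mouse, and the P1 libraries keep their labelled numbers 3, 4 and 5. Age, sex, recipient strain and the tumour of origin of the transferred cells are not given in the sources used here. Each library is labelled as 1 mouse, but whether the P1 spleens received cells of 1 tumour is not stated, and the p-values below reflect only how much these 6 libraries vary.

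BAFF binds all 3 of the receptors BAFF receptor, TACI and BCMA, whereas APRIL binds TACI and BCMA. Mature B cells need BAFF for survival and receive T cell help through CD40. In resting cells TRAF3, together with TRAF2 and the ligases cIAP1 (Birc2) and cIAP2 (Birc3), keeps the kinase NIK at a low level by marking it for degradation. Engagement of BAFF receptor or CD40 removes TRAF3, NIK accumulates and activates IKKα (Chuk), and p100 (Nfkb2) is processed to p52, which acts with RelB. This control acts largely on the proteins, and the present data measure RNA only.

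The axis did not move as a block. BAFF receptor and TACI transcripts overlapped between the groups, with P1 libraries below and, for BAFF receptor, above the WT range, although the general B cell genes were lower in every P1 library. CD40 transcripts were 6.14-fold lower in P1 spleen, close to the median change of the general B cell genes. Traf2, Birc3 and Map3k14 were 1.82 to 3.36-fold lower, a direction that turns when the general B cell genes are set equal between libraries, and BAFF transcripts were 16.2-fold higher from a very low WT level. Of the 10 genes, 8 passed the filter on low counts, and Tnfrsf17 and Tnfsf13 did not. In edgeR's quasi-likelihood test, with Benjamini-Hochberg adjustment over 15462 genes, 4 of the 8 were lower and 1 was higher. Over all tested genes 11.0% were called lower, 16.9% higher and 27.9% in either direction. The P1 libraries lay below all WT libraries for 5 of the 8 and above them for 1, against 24.9% and 22.9% of all tested genes (47.8% on either side). The median log2 fold change of the 8 tested genes was -0.80, against 0.02 over all tested genes. With library totals in place of TMM, 3 were lower and 1 higher (9.44% and 12.5% of all genes, 21.9% in either direction). DESeq2 called 5 of the 10 lower and 2 higher (6.90% and 11.7% of the 31473 genes with a count, 18.6% in either direction). Those shares include genes to which DESeq2 gave no adjusted p and which it could not call, so they understate the background. On the same 31473 genes edgeR without a filter called 4 lower and 2 higher (6.08% and 10.3%, 16.4% in either direction).

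Library totals ran from 12196413 to 14266132 counts in WT and from 7510327 to 10363396 in P1. P1 3, 4 and 5 differed among themselves. The immunoglobulin gene Ighv1-69 took 55.5% of Ighv counts in P1 3, 92.6% in P1 4 and 96.8% in P1 5, against at most 1.09% in WT. Whether the 3 spleens carry 1 clone was not tested. Mitochondrial genes took 17.4% of the counts in P1 4 against 0.0854% to 3.40% in the other libraries. As a check of the WT label, 17 general B cell genes, called pan-B here (among them Cd79a, Ms4a1 and Pax5, and no axis gene), had a geometric mean of 562 ± 23.8 CPM (SD, n = 3) in WT and 91.6, 53.8 and 137 CPM in P1 3, 4 and 5. CPM are counts relative to the library's size after TMM, a trimmed-mean correction for library composition. All 17 were below WT in every P1 library. The selection of B cells, the genotype and the tumour differ between the groups together and cannot be told apart, and in bulk RNA fewer B cells and less RNA per B cell cannot be told apart either. Each gene is therefore also given under pan-B scaling, which sets the geometric mean of the pan-B genes equal in all libraries. By its construction this scaling shifts every gene up in P1, and the median over all tested genes becomes 2.75. It called 6 of the 8 tested axis genes higher and 0 lower, against 88.6% and 0.795% of all genes (89.4% in either direction).

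**Figure D1:**
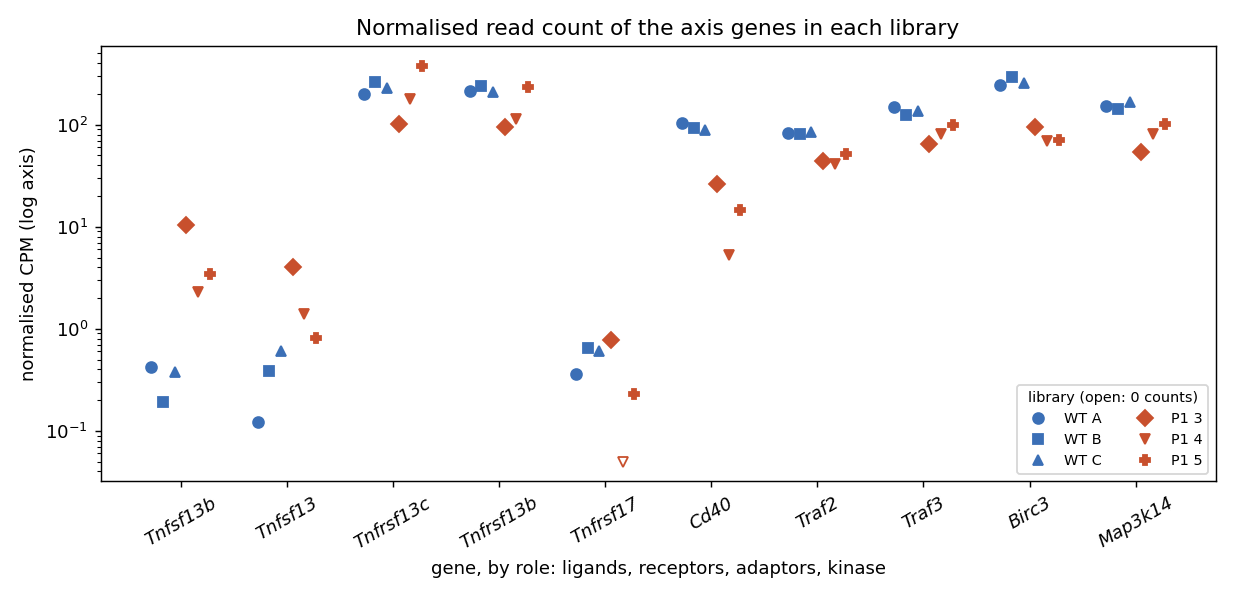
Normalised CPM (log axis) of the 10 axis genes in each library, ordered as ligands, receptors, adaptors and kinase; blue points are the 3 WT B cell libraries and red points the 3 P1 spleens, and the open point is a library with 0 counts. The P1 points of Cd40, Traf2, Traf3, Birc3 and Map3k14 all lie below the WT points, those of Tnfsf13b and Tnfsf13 lie above, and those of Tnfrsf13c, Tnfrsf13b and Tnfrsf17 overlap with WT.

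One short promoter sequence is shown because Traf3, the gene that restrains NIK, was the axis gene with a kappaB consensus match, the sequence that NF-kappaB dimers bind. RefSeq promoter windows of build GRCm38.p6, from 250 bases before to 50 bases after a gene's start, were found for 9 of the 10 axis genes, with 10 windows in all, and not for Cd40. The 10-base kappaB consensus was searched on both strands, and 1 of the 10 windows held it, against 8.46% of all 32851 windows of this length, so the share in the axis is near the background. The match lies on the strand of the gene, with its first base 10 bases before the start. The stretch is chr12:111166350-111166379 of GRCm38.p6, plus strand, and the capitals mark the match. The gene coordinates given elsewhere are those of the count table (GRCm39) and are not comparable with it. A match is a description of the letters and not a measured binding site.
Traf3: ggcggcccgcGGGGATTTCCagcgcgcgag

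BAFF, the survival ligand, was the axis gene called higher. Tnfsf13b (ENSMUSG00000031497.11, chromosome 8, 10056467 to 10089072, plus strand, GRCm39) had 7, 3 and 5 counts in WT, whereas P1 3, 4 and 5 had 122, 10 and 30 counts. Every P1 library was above every WT library, and P1 3 was the highest. In normalised CPM these are 0.424, 0.193 and 0.378 in WT and 10.5, 2.31 and 3.48 in P1. Tnfsf13b rose by 4.02 ± 0.73 in log2 fold change (± standard error, edgeR adjusted p = 0.00477), and by 6.64 under pan-B scaling (edgeR adjusted p = 0.000397). Its level stayed low: per length it had the lowest level of the axis in WT, and in P1 its mean level was below those of Tnfrsf13c, Tnfrsf13b and Cd40. Without P1 3 the log2 fold change was 3.11 (edgeR adjusted p = 0.00689).

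Neutrophils, monocytes and macrophages are known sources of BAFF, and many of their markers were higher in the P1 spleens too. All 10 neutrophil markers were above WT in every P1 library, and their summed level ranged from 3.79 to 9.90 CPM in WT and from 877 to 5069 CPM in P1. Of 11 macrophage and monocyte markers 6 were above WT in every P1 library, with summed levels of 227 to 591 CPM in WT and 616 to 2612 CPM in P1. The edgeR test called 4 of these 11 higher and 7 not, and 2 had a negative log2 fold change. No marker of either list was at 0 in a group. Dendritic cells can also make BAFF, and 1 of their 7 markers was above WT in every P1 library (summed 21.0 to 53.9 CPM in WT and 41.4 to 138 CPM in P1). Over all tested genes 22.9% were above WT in every P1 library. Among the P1 spleens, P1 3 had the highest and P1 4 the lowest value of the neutrophil list, of the macrophage list and of Tnfsf13b. The place of P1 4 in the macrophage list rests on Lyz2 (1471, 42.8 and 312 CPM in P1 3, 4 and 5). Without Lyz2 that list would be lowest in P1 5. The dendritic cell list was also highest in P1 3 but lowest in P1 5 (138, 62.9 and 41.4 CPM in P1 3, 4 and 5). A list of 8 T cell markers had P1 3 highest and P1 4 lowest as well (521, 231 and 232 CPM). The part of any of these cell types in the level of Tnfsf13b was not tested.

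APRIL, the other ligand, had few counts. Tnfsf13 (ENSMUSG00000089669.8, chromosome 11, 69573672 to 69576610, minus strand) had 2, 6 and 8 counts in WT and 47, 6 and 7 counts in P1 3, 4 and 5. After normalisation every P1 library was above every WT library, at 4.04, 1.39 and 0.812 CPM against at most 0.605 CPM. It did not pass the filter on low counts. Without that filter its log2 fold change was 2.42 ± 0.80 (edgeR adjusted p = 0.0318). Among the filtered fits it was tested only without P1 4, where it did not pass (edgeR adjusted p = 0.0578). The gene model shares 60.05% of its exonic bases with Tnfsfm13 on the same strand and 13.5% with the antisense gene Tnfsf13os. The counting strand and the rule for shared bases are not stated, so the count of Tnfsf13 is uncertain.

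The BAFF receptor held the highest level per length of the axis in both groups. Tnfrsf13c (ENSMUSG00000068105.12, chromosome 15, 82105944 to 82108570, minus strand) had 198, 261 and 228 CPM in WT and 101, 180 and 379 CPM in P1 3, 4 and 5. The groups overlapped: P1 5 was above all 3 WT libraries and P1 3 and 4 were below them. Its log2 fold change was -0.06 ± 0.45 (edgeR adjusted p = 0.939), and it was 2.55 ± 0.52 under pan-B scaling (edgeR adjusted p = 0.00205). The latter lies 0.20 below the median of all genes under that scaling. All 17 pan-B genes had a lower log2 fold change than Tnfrsf13c, from -4.37 for Bank1 to -1.29 for Blnk. All 17 also lay below the median of all tested genes, 0.02.

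TACI, a receptor of BAFF and APRIL that is abundant on marginal zone B cells, had a like pattern. Tnfrsf13b (ENSMUSG00000010142.13, chromosome 11, 61017581 to 61040198, plus strand) had 212, 242 and 208 CPM in WT and 95.5, 113 and 233 CPM in P1 3, 4 and 5. P1 5 lay among the WT libraries and the other two lay below them. The log2 fold change was -0.58 ± 0.36 (edgeR adjusted p = 0.27), and 2.04 ± 0.42 under pan-B scaling (edgeR adjusted p = 0.00203). Without P1 5 the change was -1.10 and passed the threshold (edgeR adjusted p = 0.012). As with Tnfrsf13c, all 17 pan-B genes had a lower log2 fold change, and the median of all tested genes (0.02) lay above all 17 too.

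BCMA, the receptor of plasma cells, was near the limit of detection in both groups. Tnfrsf17 (ENSMUSG00000022496.6, chromosome 16, 11131676 to 11137938, plus strand) had 6, 10 and 8 counts in WT and 9, 0 and 2 counts in P1 3, 4 and 5. The groups overlapped, and the gene did not pass the filter. Without the filter its log2 fold change was -0.54 ± 0.95 (edgeR adjusted p = 0.719), so no difference was detectable at this depth. The summed level of 6 plasma cell markers was 597 to 807 CPM in WT and 217 to 386 CPM in P1, and no marker was at 0 in a group. The 6 markers differed in direction, with a median log2 fold change of 0.01. Of these, 2 were above WT in every P1 library and 2 below, against 22.9% and 24.9% of all tested genes.

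CD40, the receptor for T cell help, was the receptor that fell. Cd40 (ENSMUSG00000017652.17, chromosome 2, 164897547 to 164914868, plus strand) had 105, 93.7 and 88.4 CPM in WT and 26.1, 5.32 and 14.5 CPM in P1 3, 4 and 5. Every P1 library was below every WT library, and P1 4 held 23 counts. Without P1 3 the log2 fold change was -3.23 (edgeR adjusted p = 0.00307). Its log2 fold change was -2.62 ± 0.49 (edgeR adjusted p = 0.00561), but was at -0.05 ± 0.46 under pan-B scaling (edgeR adjusted p = 0.926). Of the 17 pan-B genes, 8 had a lower log2 fold change than Cd40, whose change was near their median of -2.55. The CD40 ligand gene Cd40lg, a gene of activated T cells, had 5, 5 and 6 counts in WT and 8, 0 and 0 in P1. These counts are near the floor and did not pass the filter. Without the filter no difference was detectable (-0.44 ± 1.11, edgeR adjusted p = 0.817). All 8 T cell markers were above WT in every P1 library, against 22.9% of all tested genes. Their summed level was 40.8 to 51.8 CPM in WT and 231 to 521 CPM in P1, with none at 0.

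**Figure D2:**
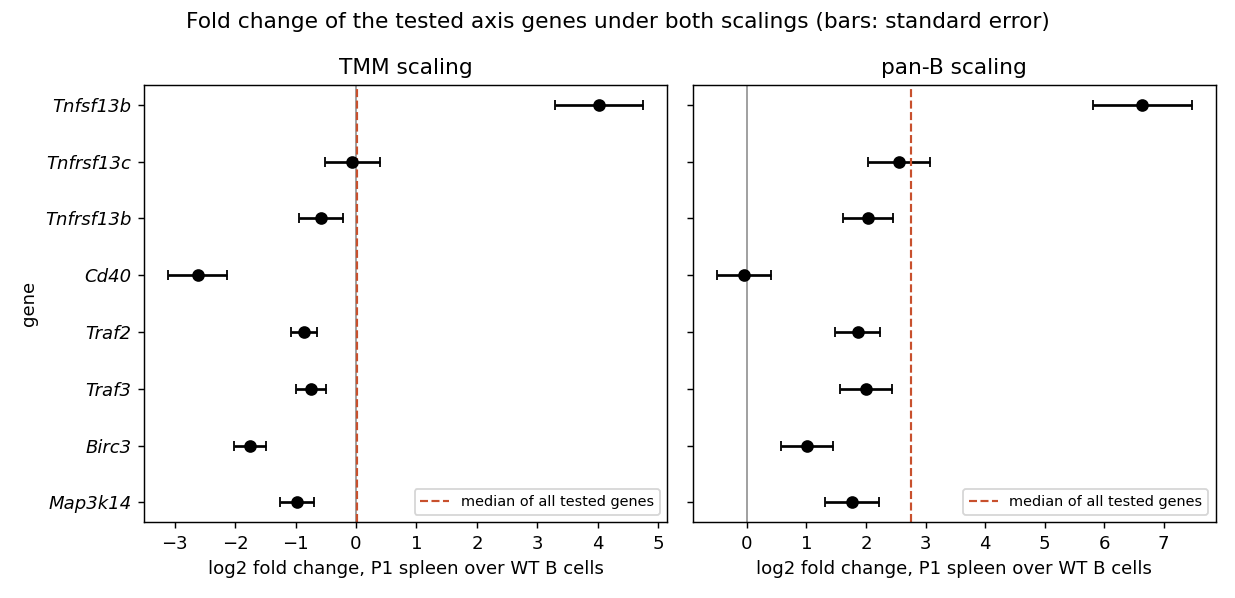
Log2 fold change of P1 spleen over WT B cells with its standard error (bars) for the 8 tested axis genes, under TMM scaling (left) and pan-B scaling (right); the dashed line is the median of all tested genes. Under TMM Tnfsf13b lies at 4.02 and the other 7 between -2.62 and -0.06, while under pan-B scaling Cd40 lies at -0.05 and the others above 0.

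The 3 regulators Traf2, Traf3 and Map3k14 had log2 fold changes above those of all 17 pan-B genes, and Birc3 above those of 15 of them. The median of all tested genes, 0.02, also lay above all 17 pan-B genes and above these 4 regulators. Traf2 (ENSMUSG00000026942.14, chromosome 2, 25407994 to 25436952, minus strand), an adaptor that brings the cIAP ligases to TRAF3, had 82.8, 81.9 and 84.3 CPM in WT and 44.0, 41.2 and 51.6 CPM in P1. Both groups were tight and did not overlap. Traf2 fell by 0.86 ± 0.22 (edgeR adjusted p = 0.0211), but was higher by 1.86 under pan-B scaling (edgeR adjusted p = 0.00209). The call was lost on leaving out any WT library (edgeR adjusted p = 0.0836, 0.0828 and 0.0809 in turn), and with library totals (edgeR adjusted p = 0.0834).

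Traf3 (ENSMUSG00000021277.17, chromosome 12, 111132804 to 111233587, plus strand), the adaptor that docks NIK to the ligases, had 150, 124 and 136 CPM in WT and 65.3, 80.5 and 99.3 CPM in P1. The groups did not overlap, but the log2 fold change of -0.74 ± 0.25 did not pass (edgeR adjusted p = 0.0603). It passed with DESeq2 (-0.77, adjusted p = 0.0377) and without P1 5 (-0.93, edgeR adjusted p = 0.02), and was 2.00 under pan-B scaling (edgeR adjusted p = 0.00254).

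Birc3, which encodes the ligase cIAP2 and is itself an NF-kappaB target, changed the most of the regulators. Birc3 (ENSMUSG00000032000.18, chromosome 9, 7848700 to 7873187, minus strand) had 246, 295 and 255 CPM in WT and 96.1, 69.7 and 71.2 CPM in P1, with no overlap. It fell by 1.75 ± 0.26 (edgeR adjusted p = 0.00225), but was at 1.01 under pan-B scaling, where it did not pass (edgeR adjusted p = 0.0506). Its close relative Birc2, which encodes cIAP1, had 55.2, 64.8 and 64.0 CPM in WT and 53.0, 47.2 and 40.7 CPM in P1, a log2 fold change of -0.38 ± 0.23 (edgeR adjusted p = 0.248). The ratio of Birc3 to Birc2 counts per length, which no library scaling can change, was 4.08, 4.16 and 3.64 in WT and 1.66, 1.35 and 1.60 in P1. Every P1 library was thus below every WT library in this ratio. The pair was chosen with earlier results known and was given no test. The part of other spleen cells in the ratio was not tested.

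Map3k14 (ENSMUSG00000020941.8, chromosome 11, 103110588 to 103158298, minus strand), the kinase NIK, had 153, 143 and 166 CPM in WT and 54.5, 80.5 and 101 CPM in P1 3, 4 and 5. The groups did not overlap, and P1 3 was the lowest. It fell by 0.97 ± 0.28 (edgeR adjusted p = 0.0359), but was higher by 1.77 under pan-B scaling (edgeR adjusted p = 0.00556). The call was lost without WT A, B or C or P1 4 (edgeR adjusted p = 0.106, 0.0974, 0.11 and 0.0517). The ratio of Map3k14 to Traf3 counts per length was 1.14, 1.30 and 1.37 in WT and 0.937, 1.12 and 1.15 in P1, and the values of the groups overlapped.

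Across the axis, levels per length were compared as normalised CPM per kilobase of exon, or RPKM. In WT the order was Tnfrsf13c (112 ± 15.5 RPKM, SD, n = 3), Tnfrsf13b (77.8 ± 6.56), Birc3 (53.0 ± 5.19), Cd40 (28.1 ± 2.41), Map3k14 (23.5 ± 1.70), Traf3 (18.6 ± 1.77), Traf2 (16.3 ± 0.234), Tnfrsf17 (0.659 ± 0.185), Tnfsf13 (0.226 ± 0.148) and Tnfsf13b (0.0483 ± 0.0178). The ranges of neighbours in that order did not overlap, although some came close. These were Cd40 and Map3k14 (lowest 26.0 and highest 25.3 RPKM), Traf3 and Traf2 (16.9 and 16.5), and Tnfsf13 and Tnfsf13b (0.074 and 0.0618). The last pair had at most 8 counts in any WT library. In P1 the order was Tnfrsf13c (107 ± 70.0 RPKM), Tnfrsf13b (51.9 ± 26.4), Birc3 (15.8 ± 2.96), Map3k14 (12.0 ± 3.58), Traf3 (11.1 ± 2.32), Traf2 (8.94 ± 1.06), Cd40 (4.49 ± 3.05), Tnfsf13 (1.27 ± 1.05), Tnfsf13b (0.790 ± 0.644) and Tnfrsf17 (0.411 ± 0.487). There Tnfrsf13c and Tnfrsf13b overlapped, as did neighbours from Birc3 to Traf2 and from Cd40 to Tnfrsf17, while Cd40 lay below Traf2 in every library. Cd40 thus went from the fourth to the seventh place.

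The receptors parted from each other within the same libraries. The ratio of Tnfrsf13c to Cd40 counts per length was 3.15, 4.64 and 4.28 in WT and 6.43, 56.1 and 43.5 in P1 3, 4 and 5. The ratio of Tnfrsf13b to Cd40 was 2.44, 3.10 and 2.82 in WT and 4.40, 25.5 and 19.3 in P1. In both ratios every P1 library was above WT, and P1 3, the spleen with the smallest Ighv1-69 share, was the nearest to WT. The ratio of Tnfrsf13c to Tnfrsf13b was 1.29, 1.50 and 1.52 in WT and 1.46, 2.20 and 2.25 in P1, and overlapped. These pairs were chosen with the values known and were given no test. The part of other B cells in P1 3 was not tested.

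Set against the pan-B genes of the same library, BAFF receptor and TACI transcripts were higher in P1 spleen, as most genes were: the median log2 difference on this ratio was 2.65 over 14627 tested genes with counts in every library. Tnfrsf13c stood at 34.8%, 44.9% and 42.6% of the geometric mean CPM of the pan-B genes in WT and at 110%, 334% and 277% in P1 3, 4 and 5. Tnfrsf13b stood at 37.3%, 41.6% and 38.8% in WT and at 104%, 210% and 170% in P1. Every P1 library was above WT for both. On the log2 scale the differences were 2.42 for Tnfrsf13c and 1.98 for Tnfrsf13b (two-sided exact permutation p = 0.1 for each, n = 3 per group), and 0.1 is the smallest p that this design allows. Both differences lie below the median of those genes.

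Cd40 stood at 18.4%, 16.1% and 16.5% of the pan-B level in WT and at 28.4%, 9.89% and 10.6% in P1 3, 4 and 5, a log2 difference of -0.24 (exact permutation p = 0.7, n = 3 per group). P1 3 was above WT, and P1 4 and 5 were below it. The value without P1 3 was -0.73. Traf2, Traf3, Birc3 and Map3k14 were above WT in every P1 library on this measure, by 1.81, 1.92, 0.92 and 1.67 on the log2 scale (exact permutation p = 0.1 each, n = 3 per group). Among the 8 tested axis genes, 7 were above WT in every P1 library on this ratio, against 86.1% of all tested genes, so this count is near the background. Of 9 genes computed, including Tnfsf13, all but Cd40 had a p of 0.1, and Tnfrsf17, with 0 counts in P1 4, was not computed. Traf2, Traf3, Birc3 and Map3k14 are expressed in many cell types, and the part of other spleen cells in these ratios was not tested.

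**Figure D3:**
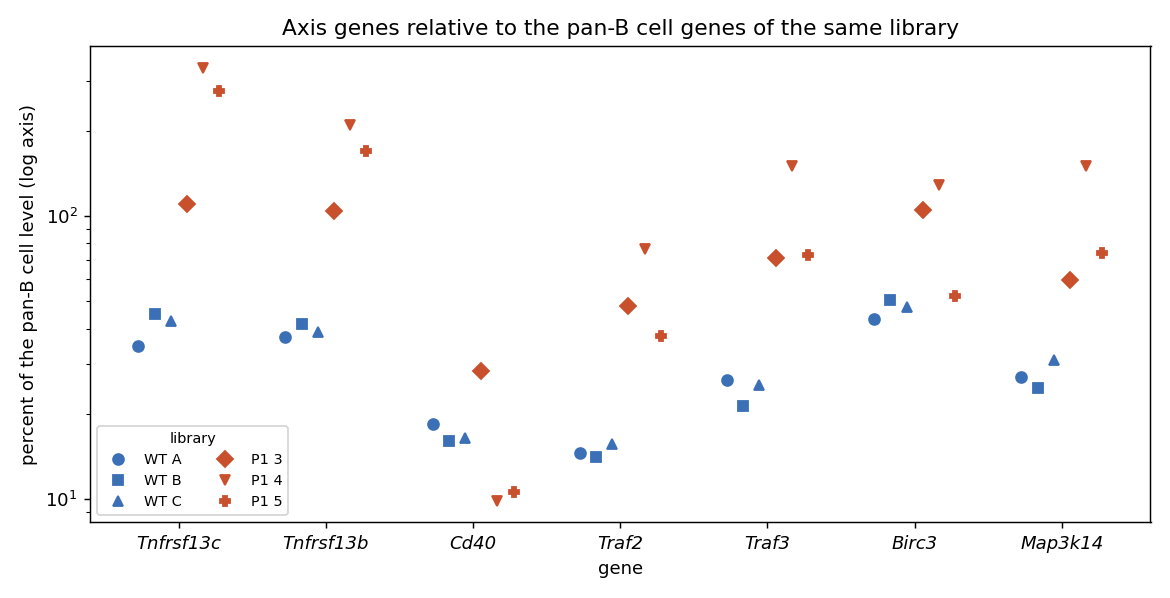
Level of 7 axis genes as a percent of the geometric mean CPM of 17 pan-B genes in the same library (log axis); blue points are WT B cell libraries and red points P1 spleens. Tnfrsf13c lies between 34.8% and 44.9% in WT and between 110% and 334% in P1, whereas Cd40 lies at 16.1% to 18.4% in WT and at 9.89% to 28.4% in P1.

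Of 10 other TNF-family ligands and receptors that feed this pathway, 8 were tested, 3 were higher and 2 lower (16.9% and 11.0% of all tested genes), and their median was 1.39 in log2 fold change. The lymphotoxin genes fell. Ltb had 436, 440 and 485 CPM in WT and 68.5, 23.8 and 55.8 CPM in P1, a change of -3.19 ± 0.42 (edgeR adjusted p = 0.00133), which became -0.60 with pan-B scaling and did not pass (edgeR adjusted p = 0.167). Lta changed by -3.48 ± 0.58 (edgeR adjusted p = 0.00339), which became -0.93 with pan-B scaling and did not pass (0.185), and was -4.40 without P1 3. Their receptor Ltbr, which B cells and T cells largely lack, rose by 3.77 ± 0.61 (edgeR adjusted p = 0.00295), from 0.788, 1.67 and 4.16 CPM in WT to 37.8, 19.4 and 32.2 CPM in P1, and its change was 4.56 without WT C. Tnfsf14 (LIGHT), another ligand of that receptor, rose by 3.79 ± 0.80 (edgeR adjusted p = 0.0092), or 2.72 without P1 3. Cd27 rose by 1.75 ± 0.42 (edgeR adjusted p = 0.0165), a call lost without WT B or C (0.075 and 0.0601) and with library totals (0.073). Tnfrsf1b, Tnfrsf11a and Tnfrsf8 were at 1.19, 1.40 and 1.38 and did not pass, and Cd40lg and Tnfsf11 were below the filter.

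Of 15 other adaptors, kinases, subunits and regulators, 0 were higher and 5 lower, against 16.9% and 11.0% of all tested genes. Their median was -0.68 and 14 of the 15 were below 0, against 49.2% of all tested genes. Under pan-B scaling 13 were higher and 0 lower, near the 88.6% of all genes called higher there, with a median of 2.19 against 2.75 over all genes. Nfkb2, the p100 precursor on which this pathway acts, had 377, 336 and 428 CPM in WT and 114, 114 and 101 CPM in P1. It fell by 1.80 ± 0.26 (edgeR adjusted p = 0.00192), and was at 1.00 and not called under pan-B scaling. Its partner Relb had 102, 103 and 125 CPM in WT and 51.9, 97.0 and 57.4 CPM in P1, a change of -0.68 ± 0.30 that did not pass (edgeR adjusted p = 0.125). Without P1 4 it was -0.99 and passed (edgeR adjusted p = 0.0142).

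Traf5, an adaptor of CD40 and CD27, fell by 2.24 ± 0.30 (edgeR adjusted p = 0.00148), the most of this list, and was at 0.38 and not called under pan-B scaling. Rela fell by 1.10 ± 0.23 (edgeR adjusted p = 0.00908), Nfkb1 by 0.84 ± 0.26 (0.0411) and Otud7b, which removes ubiquitin from TRAF3, by 0.86 ± 0.26 (0.0378), but all 3 were higher under pan-B scaling, by 1.63, 1.89 and 1.91. The calls of Nfkb1 and Otud7b were lost on leaving out any WT library and with library totals. Chuk, the kinase activated by NIK, was at -0.57 ± 0.34 (edgeR adjusted p = 0.247), with 54.9 CPM in P1 3 against 28.7 and 23.3 CPM in P1 4 and 5, and passed without P1 3 (-1.04, edgeR adjusted p = 0.0159).

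Of 7 genes of B cells known to depend on BAFF, 4 were lower and 1 higher, against 11.0% and 16.9% of all tested genes, with a median of -1.16. Icosl, the ligand of the T cell costimulator ICOS, had 399, 359 and 312 CPM in WT and 27.3, 8.33 and 3.48 CPM in P1 3, 4 and 5. It fell by 4.75 ± 0.71 (edgeR adjusted p = 0.00231) and stayed lower under pan-B scaling (-2.00, edgeR adjusted p = 0.0305). The complement receptor gene Cr2 and the CD23 gene Fcer2a, the other surface genes of the list, also fell under both scalings (-9.17 and -8.13, and -6.61 and -5.51 with pan-B scaling). In all 3 of these genes P1 3 was the highest of the P1 spleens, and without it the log2 fold changes were -5.97 for Icosl, -12.13 for Cr2 and -10.83 for Fcer2a. Cr2 had 34, 0 and 2 counts in P1 3, 4 and 5, and Fcer2a 58, 2 and 2. The size of these changes, above all without P1 3, is thus uncertain for Cr2 and Fcer2a.

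The survival genes of that list differed among themselves in direction. Bcl2 had 157, 160 and 167 CPM in WT and 65.1, 62.5 and 89.2 CPM in P1, and fell by 1.16 ± 0.25 (edgeR adjusted p = 0.0096), but was higher by 1.54 under pan-B scaling. Mcl1, a target of BAFF signalling in survival, was at 0.30 ± 0.37 (edgeR adjusted p = 0.591), and Pim2 at -0.71 ± 0.38 (edgeR adjusted p = 0.208). Bcl2l1, which encodes BCL-XL, rose by 6.59 ± 1.06 (edgeR adjusted p = 0.00295), to 448, 2127 and 124 CPM in P1 3, 4 and 5. Its change was 4.97 without P1 4 and 5.90 with library totals. Red cell precursors also depend on BCL-XL. All 7 of their markers were above WT in every P1 library, none was at 0, and the summed level of 23965, 180575 and 4285 CPM in P1 3, 4 and 5 followed the same order, against 46.1 to 69.0 CPM in WT. The part of these cells in the level of Bcl2l1 was not tested.

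Of 9 genes that CD40 engagement is known to induce in B cells, 1 was higher and 2 lower, with a median of -0.21. Over all tested genes 27.9% were called, so 3 of 9 is near the background. Cd83 and the costimulatory ligand gene Cd86 fell by 2.97 ± 0.38 and 1.66 ± 0.38 (edgeR adjusted p = 0.00115 and 0.0125), and were at -0.06 and 0.96 and not called under pan-B scaling. The Cd86 call was lost without WT B (0.0592). The chemokine gene Ccl22 rose by 1.85 ± 0.55 (edgeR adjusted p = 0.037) with at most 30 counts in a library, a call lost without any WT library, without P1 3 or 5, with library totals and without a filter. Fas, Icam1, Nfkbia, Cd80 and the regulators Traf1 and Tnfaip3, which are also counted among the 15 regulators, did not pass, with log2 fold changes of -0.68 to 1.04.

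**Figure D4:**
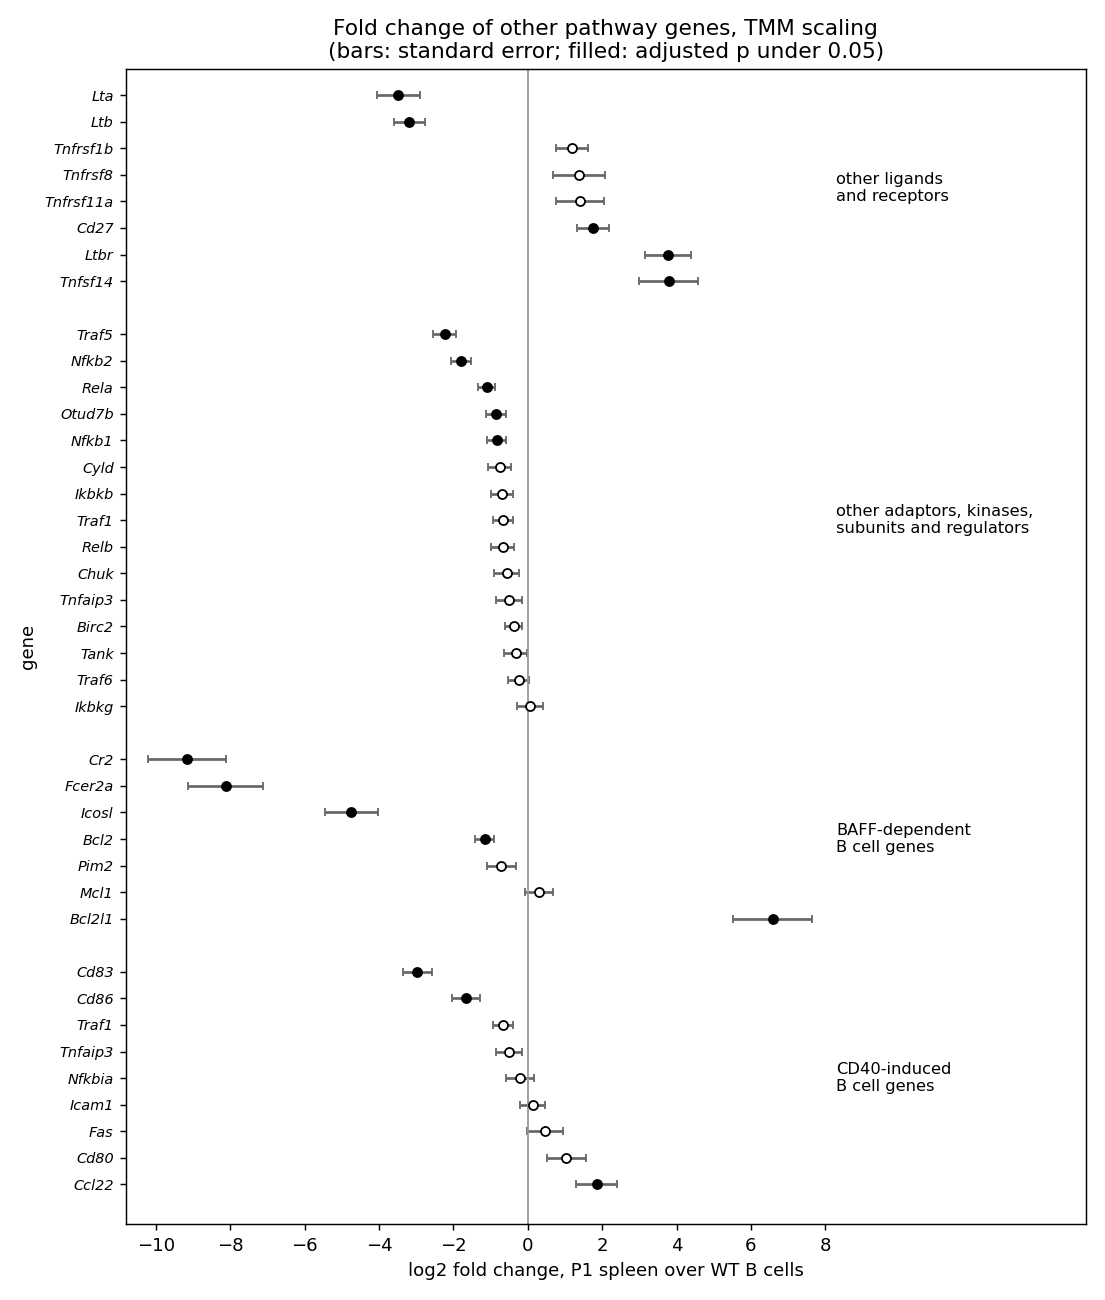
Log2 fold change of P1 spleen over WT B cells under TMM scaling for the tested genes of 4 other pathway lists; bars are standard errors and filled points have an edgeR adjusted p under 0.05. Cr2 (-9.17), Fcer2a (-8.13) and Icosl (-4.75) lie far to the left and Bcl2l1 (6.59) far to the right, while 14 of 15 adaptors, kinases, subunits and regulators lie within 2.24 below 0.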

How the data were processed

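Total RNA of 3 selected WT spleen B cell samples and 3 P1 spleens was sequenced, with NEBNext Ultra Directional libraries per the labels' protocols. The deposited values are raw counts per gene. Per the submitters' processing notes, Trim Galore, HISAT2, featureCounts and GRCm39 were used; their versions and settings, and whether counting used strand, are not given in the sources used here. Symbols were matched by gene ID for 51948 of 56884 genes.

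Counts were filtered with filterByExpr, normalised with TMM and tested with edgeR (4.0.16, R 4.3.3) by the robust quasi-likelihood F-test without covariates, with Benjamini-Hochberg adjustment over all 15462 genes at 0.05. The standard error is the log2 fold change divided by the square root of F. A gene is called risen or fallen only where the adjusted p passed and the groups did not overlap. Alternatives were library totals, pan-B scaling (equal geometric mean of the pan-B genes), DESeq2 (1.42.0), no filter, and leaving out each library. The pan-B ratio used the geometric mean CPM of 17 genes and a two-sided exact permutation test. All 10 axis genes and any gene of the pathway lists could be named, and marker genes beside them; 1 gene first placed in the CD40-induced list was left out, and its 9 others are reported. The genes, lists and ratios were chosen with earlier results of these data known.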

Additional observations from a re-analysis of the deposited data

How the results depend on the processing

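Under pan-B scaling 6 axis genes were higher and 0 lower, against 1 and 4 with TMM, and DESeq2 and the fit without a filter, which also tested Tnfsf13, each gave 2 higher. Leaving out 1 library gave 1 higher gene in each case and 2 to 6 lower genes: 2 without WT A, B or C and 6 without P1 5. The calls lost under these were those of Traf2 and Map3k14, while Cd40, Birc3 and Tnfsf13b passed without any 1 library. pan-B scaling turned the sign of Tnfrsf13c (2.55), Tnfrsf13b (2.04), Traf2 (1.86), Traf3 (2.00), Birc3 (1.01), Map3k14 (1.77), Birc2 (2.41), Traf1 (2.12), Traf5 (0.38), Traf6 (2.44), Chuk (2.19), Ikbkb (2.21), Nfkb2 (1.00), Relb (2.23), Nfkb1 (1.89), Rela (1.63), Otud7b (1.91), Cyld (1.91), Tnfaip3 (2.33), Tank (2.45), Bcl2 (1.54), Pim2 (1.95), Cd86 (0.96) and Nfkbia (2.75), which by its construction include the shift of all genes. Genes near 0 changed sign elsewhere without a call: Ikbkg (-0.36), Mcl1 (-0.05) and Icam1 (-0.03) with library totals, Ikbkg (-0.09) without a filter, and on leaving out 1 library Ikbkg (-0.38 to 0.27, and -0.01 without WT A), Icam1 (-0.10 to 0.42) and Tnfrsf13c (-0.73 without P1 5 to 0.28 without P1 3, 0.02 without WT B and 0.08 without P1 4). With Cd79a and Cd79b as the reference, the difference relative to B cell genes went to 2.37 for Tnfrsf13b and 2.19 for Traf2. Leaving out 1 library gave 2.11 to 2.91 for Tnfrsf13c, 1.76 to 2.27 for Tnfrsf13b, -0.73 to 0.03 for Cd40, 1.53 to 2.04 for Traf2, 1.57 to 2.10 for Traf3, 0.65 to 1.30 for Birc3, 1.28 to 1.94 for Map3k14, 5.89 to 6.97 for Tnfsf13b and 4.45 to 5.96 for Tnfsf13. No paired analysis was made because the labels give no pairing between the WT and the P1 mice. The causes of these changes were not tested.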

Other observations

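Of 5 chemokine and adhesion genes that the noncanonical pathway is known to induce in lymphoid stroma, only Cxcl12 passed the filter, at 2.87 ± 1.40 (edgeR adjusted p = 0.164), with 18, 43 and 0 counts in P1 3, 4 and 5. It was 0.80 without P1 4 (0.686) and passed without P1 5 (3.46, 0.0457) and with pan-B scaling (6.15, 0.0119). Ccl19, Ccl21a, Cxcl13 and Madcam1 had at most 26 counts in any library. Of 7 stromal and endothelial markers 5 were above WT in every P1 library and 1 below, against 22.9% and 24.9% of all tested genes, with Pdpn at 0 in WT. The marker below was Pecam1, with 259, 310 and 261 CPM in WT and 84.7, 105 and 74.7 CPM in P1 3, 4 and 5. It held most of the summed level, which was therefore lower in P1 (89.8 to 204 CPM) than in WT (261 to 313 CPM). Tnfsf12, the neighbour of Tnfsf13 that encodes TWEAK, had 6, 10 and 8 counts in WT and 35, 16 and 3 in P1 3, 4 and 5.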
